A study of Mus musculus with 24 samples.

Results

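The tubulin gene family was followed through 24 mouse liver RNA-seq libraries. The 10 genes, 5 encoding α tubulin and 5 encoding β tubulin, were taken by symbol from the 24411 genes counted in each library. They are *Tuba1a*, *Tuba1b*, *Tuba1c*, *Tuba4a* and *Tuba8* on the α side, and *Tubb2a*, *Tubb2b*, *Tubb4b*, *Tubb5* and *Tubb6* on the β side. The family was selected on the read counts of the HKO and AAV8-TBG-Null libraries, because *Tubb2a* is higher in livers that lost *E2f7* and *E2f8* in adult hepatocytes, so that contrast is given below as a description and nothing is drawn from it, and the questions put to the data are how the isotypes compare during acetaminophen (APAP) injury and regeneration and whether knockout and control livers differ in them.

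The E2F7 and E2F8 proteins are repressors of cell-cycle transcription. LKO mice (labelled KO) carried loxP-flanked *E2f7* and *E2f8* alleles, the R26R-mTmG reporter and Alb-Cre, a lifelong deletion driven by the albumin promoter. Their controls (labelled WT) were littermates without Cre. HKO mice (labelled CRE) carried the same floxed alleles and received AAV8-TBG-Cre, a virus that delivers Cre to hepatocytes, as adults. Their controls (labelled NULL) were floxed mice given the AAV8-TBG-Null vector. All animals were males of 2.5 months fasted for about 16 h. The 0 h libraries came from single mice that received no APAP, with 4 control, 4 LKO, 3 AAV8-TBG-Null and 3 HKO animals. At 12, 24, 48, 72 and 96 h after 300 mg/kg APAP, RNA of 3 mice was pooled into 1 library per genotype, and only control and LKO livers were sequenced at these times. The tissue was whole liver, so fewer cells of a type and less RNA per cell cannot be told apart.

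Microtubules are polymers of α/β tubulin dimers. They carry vesicles and secreted proteins in the resting hepatocyte and form the spindle when it divides. Mammalian genomes hold several genes for each subunit, called isotypes, whose proteins are nearly identical except in a short acidic tail at the carboxy terminus, which lies on the microtubule surface and is the place where glutamate chains are added and where a terminal tyrosine is removed from α tubulin. Free tubulin dimers also control their own mRNAs: when free tubulin is in excess, tubulin mRNAs are degraded during translation through the factor TTC5.

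The part of the β genes that sets the isotypes apart is shown first, because the same similarity limits how reads can be assigned to them. Each line gives the last 63 coding bases, stop codon included, 5′ to 3′ on the coding strand, read from the GRCm38 genome. Each lies in the last exon of its gene. Capitals mark bases that differ from *Tubb2a*, or have no counterpart in it, when the full coding sequences are aligned.
Tubb2a, chr13:34074468-34074530, minus strand: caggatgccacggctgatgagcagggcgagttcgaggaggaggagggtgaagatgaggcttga
Tubb2b, chr13:34127471-34127533, minus strand: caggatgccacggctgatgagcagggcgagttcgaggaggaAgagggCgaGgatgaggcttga
Tubb4b, chr2:25222308-25222370, minus strand: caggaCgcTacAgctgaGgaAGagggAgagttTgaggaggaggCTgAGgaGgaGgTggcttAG
Tubb5, chr17:35834982-35835044, minus strand: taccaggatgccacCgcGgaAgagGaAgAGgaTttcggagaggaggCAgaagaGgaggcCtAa

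*Tubb2b* differed from *Tubb2a* at 3 of these bases, *Tubb5* at 13 and *Tubb4b* at 17. Over the whole coding sequence *Tubb2a* and *Tubb2b* were 96.5% identical, whereas *Tubb2a* shared 84.6% with *Tubb5*, 83.6% with *Tubb4b* and 83.2% with *Tubb6*. *Tubb2a* and *Tubb2b* are neighbours on chromosome 13, and 35.9% of the 100-base stretches of *Tubb2a* transcripts also occur in *Tubb2b*. The counts used here come from uniquely mapped reads, so read pairs lying wholly within such stretches were not counted for either gene.

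Among the α genes, *Tuba1a* and *Tuba1b* were 98.3% identical over the coding sequence. Of the 100-base stretches of their transcripts, 65.8% in *Tuba1a* and 73% in *Tuba1b* also occur in other genes. *Tuba1c* came next, with 53.4%, and levels of these 3 genes are therefore less certain than those of *Tubb5* and *Tubb6*, in which no such stretch was found. *Tuba4a* is known as an α isotype whose gene does not encode the terminal tyrosine. *Tuba4a* overlaps *Stk16* on the opposite strand over 46.7% of its 100-base stretches, and the libraries carried no strand information, so reads of these genes cannot be told apart there.

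Between 12665686 and 19499897 reads per library fell on genes. Levels are given as counts-per-million reads on genes after TMM scaling (CPM), and 3 counts corresponded to 0.141 to 0.26 CPM. This floor covers counting error only. The summed level of 8 hepatocyte markers was 54200 to 130441 CPM, and none of these markers was at 0 in any library. *E2f8* had 464 to 1310 reads in HKO against 235 to 382 in null mice, and 320 to 592 in LKO against 189 to 320 in control mice. Over 12 to 96 h it was higher in LKO pools by 1.53 ± 0.21 on the log2 scale (adjusted p = 0.0237 by edgeR). Gene counts do not show which exons the reads came from, so they do not check the genotypes, and the cause of the higher count was not tested.

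Compared per length of exon sequence, *Tubb4b* and *Tuba4a* led the family in uninjured control livers, with means of 54.6 and 50.7 CPM per kb over 4 mice. *Tubb2a* followed with 26.1, *Tuba1b* with 25.3, *Tubb5* with 22.4 and *Tuba1c* with 19.4 CPM per kb. *Tubb6* had 4.68 and *Tuba1a* 4.15 CPM per kb, and *Tuba8* and *Tubb2b* were close to the detection floor. The ranges of neighbours overlapped between *Tubb4b* and *Tuba4a*, along the run from *Tubb2a* to *Tuba1c*, and between *Tubb6* and *Tuba1a*, so the order within these groups is not resolved. *Tubb4b* and *Tuba4a* held 50.4% ± 3.52 and 50.4% ± 2.45 (SD, n = 4) of the β and α transcript levels per length. The lengths count all exon bases, also those shared with other genes, and the shared part was larger in *Tuba1b*, *Tuba1a* and *Tuba1c* than in *Tuba4a*, so the lead of *Tuba4a* among the α genes is not resolved.

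*Tubb2a* stood at 16.0, 16.1 and 16.0 CPM in the AAV8-TBG-Null livers and at 49.4, 41.1 and 39.5 CPM in the HKO livers. The groups did not overlap, and the difference was 1.45 on the log2 scale. *Tubb4b* had 55.0, 54.2 and 59.9 CPM in the null livers and 97.6, 74.5 and 55.3 CPM in the HKO livers, which overlap. Of the 9 tubulin genes with enough reads to be compared, *Tubb2a* was the 1 past an adjusted p of 0.05 and 1.5-fold, where 0.96% of 12397 genes were, and nothing is read from that count since it is how the family was chosen. The share of *Tubb2a* in the β level per length was 19.9% ± 1.81 (SD, n = 3) in null and 34.0% ± 2.70 (SD, n = 3) in HKO livers.

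The null livers were lower than the LKO-cohort controls in most tubulin transcripts. The null values of *Tubb2a* took part in the choice of the family and are given as a description. Controls of the LKO cohort had *Tubb2a* at 47.3, 42.2, 45.3 and 33.6 CPM, a range that holds 2 of the 3 HKO values and none of the null values. *Tuba1b* was 13.3, 13.1 and 19.2 CPM in null livers against 52.3, 47.1, 52.8 and 37.7 CPM in the LKO-cohort controls. Null values lay below all LKO-cohort control values for 6 of the 8 measured members other than *Tubb2a*, by 2.02-fold for *Tubb4b* up to 3.51-fold for *Tuba1a*, and the exceptions were *Tubb6* and *Tuba8*. Across all genes 13.1% of 12447 were lower without overlap in the null livers and 14% higher. The HKO livers were low as well, with *Tuba1b* at 20.2, 18.6 and 16.6 CPM. Reads on no gene came to 12.62% to 14.59% in the null libraries and to 8.846% to 9.673% in the LKO-cohort control libraries. Vector, breeding cohort and sequencing cannot be told apart in the tubulin difference.

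**Figure D1:**
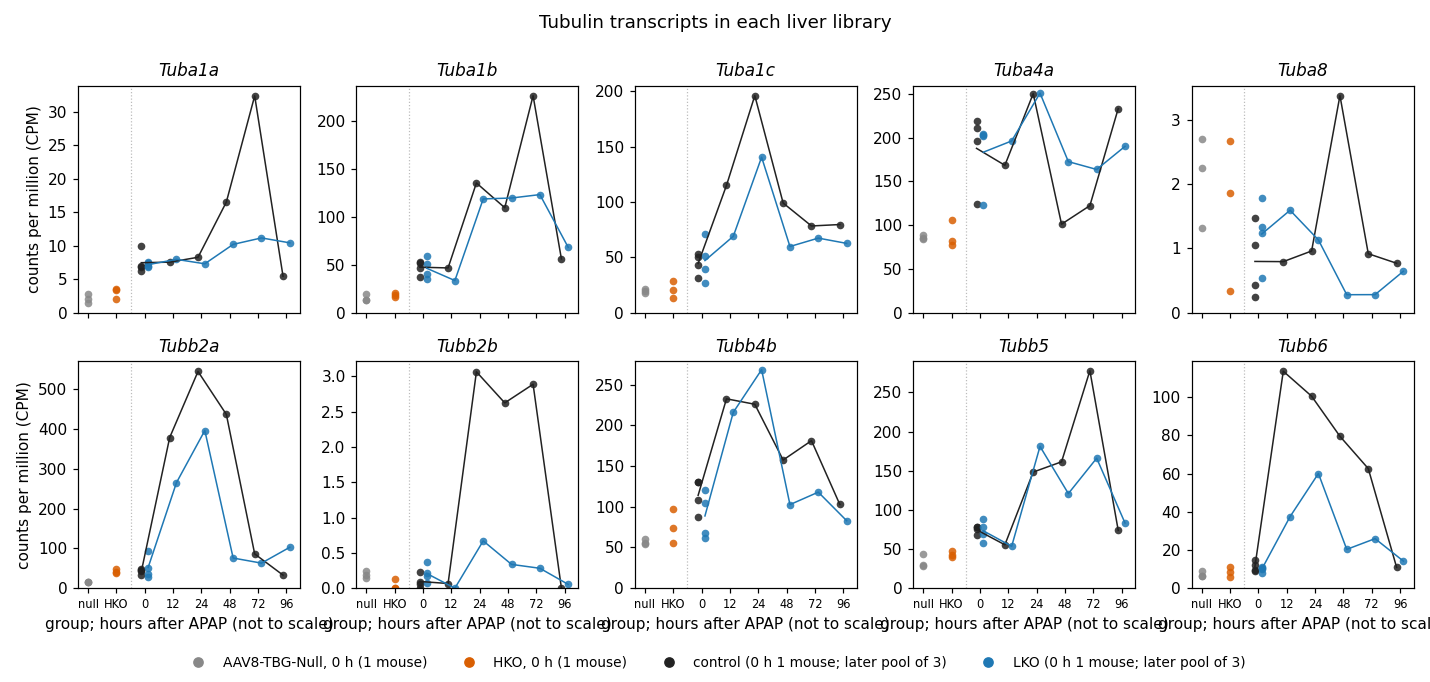
Level of each tubulin gene (CPM, linear axis from 0, own scale per gene) in every library, with AAV8-TBG-Null and HKO mice on the left of the dotted line and control and LKO libraries by hours after APAP on the right. Points are single mice at 0 h and pools of 3 mice later, and lines join the means. *Tubb2a* reaches 545 CPM in the control pool at 24 h from 33.6 to 47.3 CPM at 0 h, whereas *Tuba4a* stays between 101 and 251 CPM in all control and LKO libraries.

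In LKO livers without injury, none of the 9 tubulin genes measured passed the test against control littermates. The test was edgeR's quasi-likelihood test with Benjamini-Hochberg adjustment over all genes. A call needed an adjusted p under 0.05 and a change of at least 1.5-fold. The test called 0% of 12426 genes, with 352 at an unadjusted p under 0.05, none of them a tubulin gene, and DESeq2 called 3 genes, no tubulin gene among them. *Tubb2a* was 94.2, 36.0, 28.6 and 49.7 CPM in LKO against 47.3, 42.2, 45.3 and 33.6 CPM in control mice. The log2 difference of 0.31 ± 0.31 (SE) had a 95% interval of -0.38 to 1.01, and it became -0.14 without the LKO mouse at 94.2 CPM. *Tubb4b* was 121, 61.9, 68.0 and 104 CPM in LKO against 108, 131, 130 and 88.0 CPM in control mice, a log2 difference of -0.36 ± 0.22 (adjusted p = 0.999). For *Tubb5* and *Tuba1b*, whose groups also overlapped, the 95% intervals ran from -0.33 to 0.28 and from -0.42 to 0.37 on the log2 scale.

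After APAP 8 of the 10 tubulin genes were higher at 1 or more times, and *Tuba4a* and *Tuba8* were called at none. The 12 h libraries, 1 control and 1 LKO pool, were compared with the 8 mice at 0 h in a model with genotype and time, and the later times in the same way. Mice at 0 h received no injection and were sequenced singly, so time, APAP and pooling cannot be told apart. At 12 h, 4 of 10 tubulin genes were higher, against a background of 17% of 13328 genes. At 24 h it was 7 of 10 against 14.1%. The 48 h count was 5 of 10 against 10%, and the 72 h count 5 of 10 against 11%. None was called at 96 h, where 0.338% of genes were higher. No tubulin gene was called lower, where 14.5%, 12.1%, 6.71%, 5.81% and 0.128% of all genes were from the earliest time to the latest. The 10 genes had median log2 changes of 0.19, 1.38, 0.89 and 1.10 from 12 to 72 h, where that of all genes lay between -0.04 and 0. DESeq2 called no tubulin gene at 96 h either. At that time 2112 of the 13328 genes were at an unadjusted p under 0.05. Of the 10 tubulin genes 1 was, *Tuba1c*, whose log2 difference of 0.62 ± 0.28 had an adjusted p of 0.285.

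*Tubb2a* and *Tubb6* had the largest changes at 12 h. *Tubb2a* measured 379, 545, 437, 86.2 and 32.9 CPM in the control pools at 12, 24, 48, 72 and 96 h. In the LKO pools it measured 266, 397, 75.9, 63.1 and 103 CPM at the same times. Both pools at 12 and 24 h lay above all 8 mice at 0 h, the control pool was still high at 48 h when the LKO pool was within the LKO range, which reaches that far through LKO mouse 1 alone, and at 96 h the control pool was below its 0 h mice while the LKO pool was above the LKO mice. The log2 change was 2.78 ± 0.44 at 12 h (adjusted p = 0.000227), 3.31 ± 0.44 at 24 h (adjusted p = 9.91e-05) and 2.41 ± 0.47 at 48 h (adjusted p = 0.00226). At 72 h it was 0.66 ± 0.49 (adjusted p = 0.374), though the control pool was above all 4 control mice. In control libraries alone, where 72 h is 1 pool, the change was 1.08. The 48 h call rests on the control pool: without it the log2 change was 0.61 (adjusted p = 0.546), and without the LKO pool it was 3.32.

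*Tubb6*, a broadly expressed β isotype, measured 114, 100.5, 79.5, 62.6 and 10.9 CPM in the control pools in time order. The LKO pools had 37.5, 60.02, 20.3, 25.9 and 14.2 CPM. At 0 h it was 9.00 to 14.9 CPM in control and 8.05 to 11.0 CPM in LKO mice, so every pool from 12 to 72 h was above all mice of its genotype. The log2 change was 2.69 ± 0.30 at 12 h (adjusted p = 1.34e-05), 2.85 ± 0.30 at 24 h (adjusted p = 1.23e-05), 2.05 ± 0.31 at 48 h and 1.94 ± 0.31 at 72 h (adjusted p = 0.000311 and 0.000305). Without the control pool, the change at 12 h was 2.10 (adjusted p = 0.00379), and at 48 h it was 1.19 and no longer past the threshold (adjusted p = 0.0964). Without the LKO pool the 48 h change was 2.64. *Tubb6* was called at all times from 12 to 72 h.

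*Tubb4b* and *Tuba1c* rose early by less. *Tubb4b*, the leading β isotype of the resting liver, measured 233, 226, 157, 181 and 103 CPM in the control pools and 216, 268, 103, 118 and 82.9 CPM in the LKO pools. Its log2 change was 1.18 ± 0.22 at 12 h (adjusted p = 0.000727) and 1.32 ± 0.22 at 24 h (adjusted p = 0.000456), and at 48 h it was 0.35 ± 0.23 (adjusted p = 0.305). *Tuba1c* measured 115, 196, 99.0, 78.3 and 79.6 CPM in the control pools and 69.0, 140.5, 59.8, 67.4 and 62.6 CPM in the LKO pools, where only the 24 h pool exceeded the LKO mice. Its log2 change was 0.99 ± 0.27 at 12 h (adjusted p = 0.00964) and 1.86 ± 0.26 at 24 h (adjusted p = 0.00014). Without the control pool the 12 h change of *Tuba1c* was 0.69 (adjusted p = 0.213).

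*Tubb5* and *Tuba1b* were called from 24 to 72 h and were highest at 72 h in the control pools. *Tubb5* is the β isotype typical of dividing cells, and *Tuba1b* is the ubiquitous α isotype. *Tubb5* measured 55.4, 148, 161, 278 and 73.9 CPM in the control pools and 53.5, 181, 121, 166 and 83.3 CPM in the LKO pools. At 12 h both pools were below all mice of their genotype at 0 h, which had 57.9 to 88.1 CPM, and at 24, 48 and 72 h both were above them. The log2 change was -0.42 ± 0.19 at 12 h (adjusted p = 0.0973), 1.16 ± 0.17 at 24 h (adjusted p = 0.000252), 0.93 ± 0.18 at 48 h (adjusted p = 0.00188) and 1.58 ± 0.17 at 72 h (adjusted p = 5.18e-06). Without the control pool the 48 h change was 0.74 (adjusted p = 0.0976). *Tubb5* had its highest level in the control pool at 72 h, when *Tubb2a* was at 86.2 CPM and all 14 proliferation genes measured were higher than at 0 h.

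*Tuba1b* measured 46.7, 135, 109.5, 226 and 56.1 CPM in the control pools and 33.6, 119, 119.6, 123 and 68.2 CPM in the LKO pools. Its log2 change was -0.22 ± 0.22 at 12 h (adjusted p = 0.464), 1.43 ± 0.20 at 24 h (adjusted p = 0.000147), 1.29 ± 0.20 at 48 h (adjusted p = 0.000361) and 1.88 ± 0.20 at 72 h (adjusted p = 3.58e-06). *Tuba1b* was the 1 tubulin gene still called at 48 h when the control pool of that time was left out, in place of 5. *Tuba1a*, an isotype known from neurons and fetal tissue, measured 7.56, 8.29, 16.5, 32.4 and 5.46 CPM in the control pools and 7.98, 7.32, 10.2, 11.2 and 10.4 CPM in the LKO pools. At 48 h its log2 change was 0.86 ± 0.29 (adjusted p = 0.0518). That change was called in 9 alternatives, with DESeq2 among them (adjusted p = 0.0392), and not in 17. Its log2 change of 1.53 ± 0.28 at 72 h (adjusted p = 0.00114) was 0.63 without the control pool of that time (adjusted p = 0.393) and 2.15 without the LKO pool. Leaving out that control pool reduced the tubulin genes called at 72 h from 5 to 3, with *Tuba1a* no longer called and *Tubb2b* no longer tested for want of reads.

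*Tuba4a* measured 168, 250.1, 101, 122 and 233 CPM in the control pools and 196, 251, 172, 164 and 189.9 CPM in the LKO pools, against 125 to 219 CPM in control mice at 0 h. None of its 5 time comparisons was called, and the log2 changes lay between -0.45 ± 0.25 at 48 h (adjusted p = 0.214) and 0.43 ± 0.23 at 24 h (adjusted p = 0.167). The control pools at 48 and 72 h were below all 4 control mice, and those at 24 and 96 h above them.

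*Tuba8* and *Tubb2b* were rare. *Tuba8* was between 0.242 and 3.38 CPM in the control and LKO libraries and was called at no time. *Tubb2b*, best known from the developing brain, had 0 to 7 reads in each of the 14 mice at 0 h. The control pools held 1, 51, 52, 44 and 0 reads of it in time order, and the LKO pools 0, 13, 6, 6 and 1. Its fitted log2 changes of 3.14 ± 0.78 at 24 h (adjusted p = 0.00685), 2.75 ± 0.81 at 48 h (adjusted p = 0.0264) and 2.78 ± 0.81 at 72 h (adjusted p = 0.0243) rest on few reads at 0 h, so their size depends on the model. For each 1000 reads of *Tubb2a*, the control pools from 12 to 72 h held 0.175, 5.62, 6.00 and 33.5 reads of *Tubb2b*. The ratio was not constant across the pools. Its 48 h call was lost without control mouse 1 (adjusted p = 0.0526) or control mouse 4 (adjusted p = 0.0542) at 0 h. Without the LKO pool, its change was 3.48 at 48 h and 3.67 at 72 h.

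**Figure D2:**
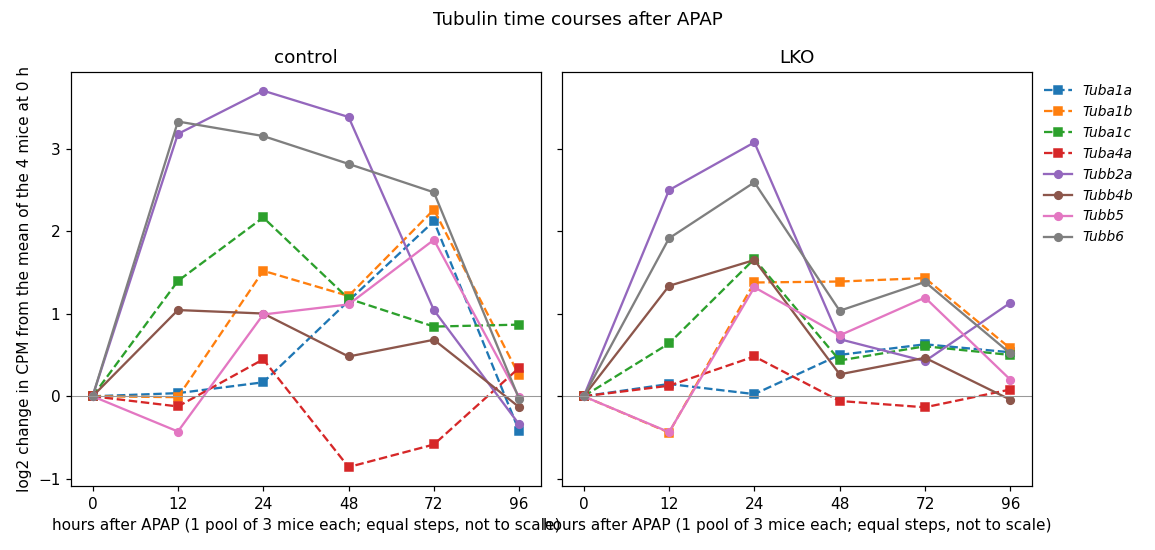
Log2 change in CPM of 8 tubulin genes from the 0 h mean of that genotype (4 mice), for the control pools (left) and the LKO pools (right) at each time after APAP. Solid lines with circles are β genes and dashed lines with squares are α genes, with 1 pool per point and time steps drawn equal. In control livers *Tubb2a* and *Tubb6* stand above the other genes drawn at 12 to 48 h. *Tuba1b*, *Tubb5* and *Tuba1a* each reach their own highest value at 72 h, when *Tubb6* is still above them.

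The promoters of *Tubb2a* and *Tubb5* are shown as those of the β genes with the largest changes at 12 h and at 72 h among those with a promoter window. Each line gives the 250 bases before the RefSeq start of transcription (GRCm38.p6), 5′ to 3′ towards the gene, with motif matches in capitals.
Tubb2a, chr13:34078009-34078258, minus strand: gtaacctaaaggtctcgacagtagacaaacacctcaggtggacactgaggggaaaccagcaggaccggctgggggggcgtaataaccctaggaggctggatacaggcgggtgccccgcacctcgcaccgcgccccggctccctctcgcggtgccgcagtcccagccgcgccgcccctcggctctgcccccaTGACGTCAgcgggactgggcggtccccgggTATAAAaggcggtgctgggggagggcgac
Tubb5, chr17:35838302-35838551, minus strand: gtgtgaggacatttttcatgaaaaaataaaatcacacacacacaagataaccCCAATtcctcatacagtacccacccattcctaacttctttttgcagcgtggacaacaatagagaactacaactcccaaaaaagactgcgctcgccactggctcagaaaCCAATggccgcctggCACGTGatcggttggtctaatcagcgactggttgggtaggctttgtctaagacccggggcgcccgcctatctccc

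In *Tubb2a* the capitals are a TATA box, TATAAA, beginning at -29, and a cyclic AMP response element, TGACGTCA, beginning at -59, counted from the start. In *Tubb5* they are CCAAT boxes beginning at -198 and -90 and an E-box, CACGTG, beginning at -75. All motifs were searched on both strands, and those printed do not overlap. Over 32851 promoter windows of the same length, TATAAA occurs in 12.4%, TGACGTCA in 1.55%, CCAAT in 33.8% and CACGTG in 6.02%. The letters of an E2F site (TTTGGCGC, TTTCGCGC, TTTCCCGC or TTTGCCGC, 1.86% of windows), the cell-cycle element TTTGAA (16%) and the AP-1 site TGAGTCA (4.46%) were searched as well and are not in these windows. Promoter windows were found for 8 of the 10 genes, and *Tubb2b* and *Tubb6* had none. Of the other genes with a window, *Tubb4b* has 5 CCAAT boxes and 1 TTTGAA, *Tuba1c* and *Tuba1a* have 1 CCAAT box each, *Tuba8* has 1 E-box, and *Tuba1b* and *Tuba4a* have none of the letters searched. A match is a string of letters and was not tested as a site.

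*Tubb2a* led the β genes in the control pools from 12 to 48 h. *Tubb2a* made up 24.2% ± 1.78 (SD, n = 4) of the β level per length in control mice at 0 h, and 57.4%, 63.4%, 63.3%, 21.4% and 21.2% in the control pools in time order. In LKO livers it was 30.6% ± 6.85 (SD, n = 4) at 0 h and then 55.0%, 54.2%, 33.4%, 25.1% and 47.6%. In control livers the share stood above its 0 h range of 22.5% to 26.7% for 48 h and returned to just below it. *Tubb4b* went from 50.4% at 0 h to 20.3% in the control pool at 24 h, although its own level rose. *Tubb5* went from 20.9% at 0 h to 4.06% at 12 h and 33.3% at 72 h in control livers. When the longest transcript was used for the length in place of all exons, the 24 h control share of *Tubb2a* was 57.0% against 18.3% to 21.9% at 0 h.

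**Figure D3:**
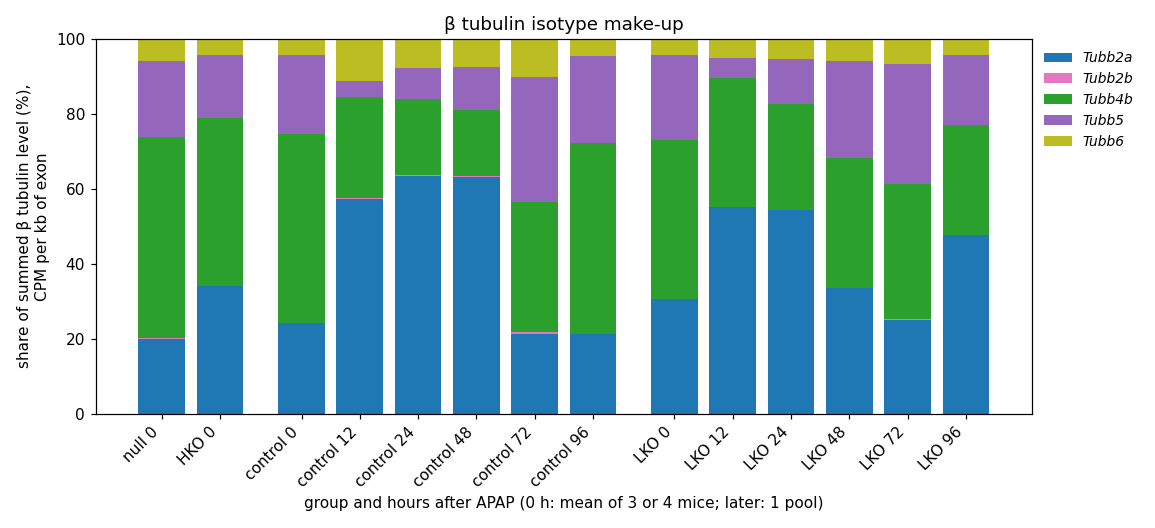
Share of each β tubulin gene in the summed β level (percent, CPM per kb of exon, stacked to 100) in each group, as the mean of single mice at 0 h and as 1 pool of 3 mice at later times. *Tubb2a* takes 57.4% to 63.4% in control pools from 12 to 48 h against 24.2% at 0 h, and 33.4% in the LKO pool at 48 h.

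The make-up of the α side shifted as well. *Tuba4a* had 50.4% of the α level per length in control mice at 0 h and 36.3%, 29.3%, 19.6%, 16.0% and 48.0% in the control pools in time order. *Tuba1b* went from 25.6% at 0 h to 58.5% at 72 h, and *Tuba1c* from 19.4% to 40.1% at 12 h. The summed β level over the summed α level was 1.10 ± 0.122 (SD, n = 4) in control mice and 3.27, 2.32, 3.07, 1.22 and 0.735 in the control pools. In LKO livers the same ratio averaged 1.01 at 0 h and was 2.82, 2.31, 0.991, 1.07 and 1.11 after APAP. The transcript balance was tilted to β tubulin in the control pools from 12 to 48 h and the LKO pools at 12 and 24 h. *Tubb2a*, itself part of the β sum, was high in these pools. It was also above its 0 h mice in the control pool at 72 h and the LKO pool at 96 h. There the ratio stayed inside the 0 h ranges of 0.968 to 1.24 and 0.769 to 1.25. Shared sequence is a larger part of *Tuba1a*, *Tuba1b*, *Tuba1c* and *Tuba4a* than of *Tubb2a*, so the size of the ratios and α shares is uncertain. These ratios of mRNA per length say nothing of protein.

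Knockout and control livers were then compared over the 5 times after APAP, with time as a block and 5 pools per genotype. No tubulin gene of 9 measured was called, where 0.579% of 12782 genes were. By an unadjusted p under 0.05, *Tubb6* and *Tuba1c* were lower in LKO livers, where 2284 of the 12782 genes differed in either direction. *Tubb6* was below control in 4 of 5 pairs, with log2 differences of -1.60, -0.74, -1.96, -1.27 and 0.37 in time order, and -1.08 ± 0.28 overall (adjusted p = 0.106). DESeq2 called it (adjusted p = 0.00372), as did edgeR without the filter on low counts (adjusted p = 0.0303). Without the 96 h pools the difference was -1.40 (adjusted p = 0.0173). In 8 other alternatives *Tubb6* was not called, with adjusted p up to 0.764. The smallest difference with 1 time left out was -0.84. In the fit without the filter and in that without the 96 h pools, *Tubb2b* was tested as well and was called with *Tubb6*, on the few reads given above. *Tuba1c* was lower in 5 of 5 pairs, by -0.51 ± 0.15 overall (adjusted p = 0.122).

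For *Tubb2a*, the genotypes were farthest apart at 48 and 96 h, in opposite directions. The log2 difference, LKO minus control, was -0.51, -0.46, -2.52, -0.45 and 1.64 at 12, 24, 48, 72 and 96 h. At 48 h the control pool had 437 CPM and the LKO pool 75.9 CPM, and at 96 h the control pool had 32.9 CPM and the LKO pool 103 CPM. At 48 h, 8.82% of genes were at least 2-fold lower in the LKO pool, and at 96 h 6.08% were at least 2-fold higher, with 1 pool a side and no replicate check. Over all times the difference was -0.48 ± 0.45 (adjusted p = 0.613), and without the 48 h pools it was 0.017. Comparing the genotype effect at 72 and 96 h with that at 12 to 48 h gave a log2 difference of 1.73 ± 0.77 for *Tubb2a* (adjusted p = 0.398) and 0.95 ± 0.46 for *Tubb6* (adjusted p = 0.442), and no tubulin gene of 10 was called where 0.165% of genes were. These values depend on single pools: *Tubb2a* ranged from 0.69 without the LKO 96 h pool to 2.79 without either 72 h pool, and *Tubb6* from 0.16 to 1.81 without the same pools. Without the control 96 h pool they were 0.71 and 0.19, and without either 48 h pool *Tubb2a* was 1.08. *Tubb2a* was the 1 tubulin gene at an unadjusted p under 0.05 in this comparison, where 1570 of 13328 genes were. DESeq2 called no tubulin gene in it.

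At 48 h *Tuba8*, *Tubb2b*, *Tubb2a* and *Tubb6* were at least 2-fold lower in the LKO pool, where 8.82% of all genes were. At 72 h 4 of the 10 tubulin genes, *Tubb2b*, *Tuba1a*, *Tuba8* and *Tubb6*, were at least 2-fold lower in the LKO pool, where 6.4% of all genes were. The log2 differences at 72 h were -2.90 for *Tubb2b* and -1.37 for *Tuba8*, both on few reads, -1.27 for *Tubb6*, -1.53 for *Tuba1a*, -0.88 for *Tuba1b* and -0.74 for *Tubb5*. *Tuba4a* went the other way, at 0.42. Over 12 to 96 h the differences were -0.31 ± 0.30 for *Tuba1a*, -0.24 ± 0.18 for *Tuba1b* and -0.16 ± 0.18 for *Tubb5* (adjusted p = 0.626, 0.528 and 0.672). The 95% interval for *Tubb5* ran from -0.55 to 0.23.

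**Figure D4:**
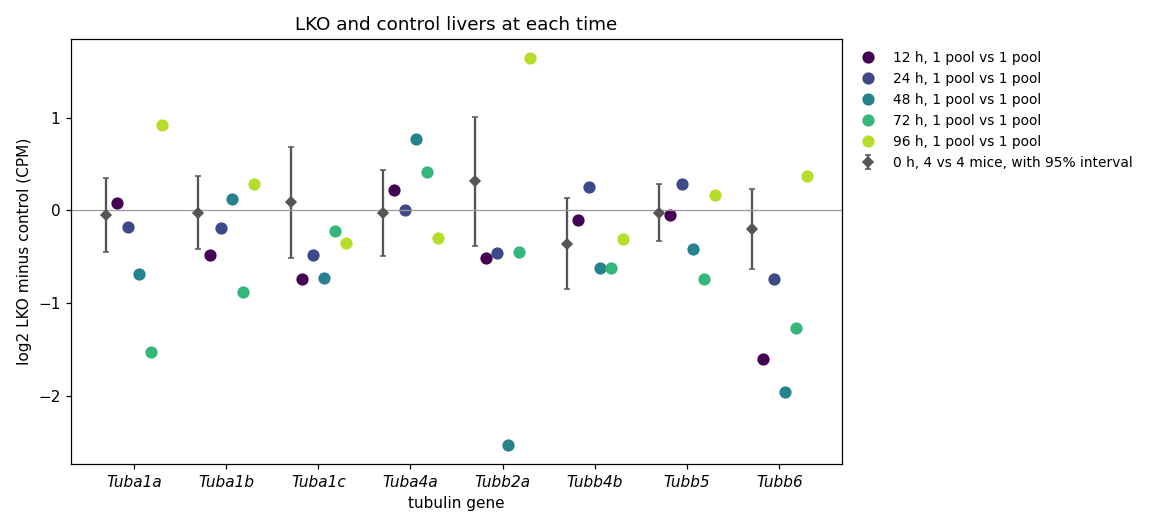
Log2 difference in CPM, LKO minus control, for 8 tubulin genes at 0 h (diamonds, 4 against 4 mice, bars are 95% intervals) and at each time after APAP (circles, 1 pool against 1 pool, no error available). *Tubb6* is below 0 from 12 to 72 h, and *Tubb2a* spans -2.52 at 48 h to 1.64 at 96 h.

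The likeness of the courses was measured as the root-mean-square difference of the log2 changes from 0 h over the 10 pools. *Tuba1b* and *Tubb5* were the closest pair of tubulin genes, at 0.36, and *Tubb2a* and *Tubb6* were 0.69 apart. *Tubb2a* and *Tubb2b*, which share most of their coding sequence, were 2.04 apart, and *Tubb2a* and *Tubb5* 1.99. Among 13328 genes, the 5 nearest to *Tubb2a* were *Mrap* at 0.504, *Syt12* at 0.562, *Krt8* at 0.590, *Plin2* at 0.638 and *Ctps* at 0.648. *Krt8* encodes a keratin of hepatocyte intermediate filaments and *Plin2* the main lipid droplet coat protein of hepatocytes. The 5 nearest to *Tubb5* were *Mtnr1a* at 0.261, *Hn1* at 0.292, *Hat1* at 0.295, *Orc6* at 0.309 and *Arl6* at 0.335, where *Orc6* encodes a subunit of the origin recognition complex and *Hat1* a histone acetyltransferase. All these values share the same 10 libraries and are descriptions.

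Among genes that fold tubulin, which include the chaperonin subunits, prefoldins and tubulin cofactors, 3 of 21 rose at 12 h, where 17% of all genes did. At 24 h 11 rose and 1 fell, where 14.1% of all genes rose and 12.1% fell. The median log2 change of the 21 genes was 0.68 at 24 h, where that of all genes was close to 0. At 24 h *Pfdn4* rose by 1.42 ± 0.38 (adjusted p = 0.0108) and *Vbp1*, another prefoldin subunit, by 1.03 ± 0.21 (adjusted p = 0.00199), and *Tbcel* fell by 0.98 on the log2 scale (adjusted p = 0.00173). At 48 and 72 h 1 and 2 of the folding genes were higher and none lower, where 10% and 11% of all genes were higher. *Ttc5*, the sensor of tubulin mRNA decay, rose by 0.66 ± 0.21 at 12 h (adjusted p = 0.0245) and 0.86 ± 0.21 at 24 h (adjusted p = 0.00637), the 1 called gene of 3 on that pathway.

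Of 18 genes for microtubule nucleation, 4 rose and 3 fell at 12 h, where 17% of all genes rose and 14.5% fell. The count was 2 higher at 24 h, 2 at 48 h and 4 at 72 h, where 14.1%, 10% and 11% of all genes rose. *Haus8*, a subunit of the augmin complex that branches spindle microtubules, rose by 2.83 ± 0.35 at 12 h (adjusted p = 3.17e-05), while *Haus4* and *Haus5* of the same complex fell by 1.21 and 1.05 on the log2 scale. *Haus8* was also the 1 gene of all tubulin and microtubule lists that was called between genotypes over 12 to 96 h, at -1.06 ± 0.19 in LKO livers (adjusted p = 0.0441). Over all genes 0.579% were called in that comparison. Of 17 tubulin-modifying enzymes measured, 3 rose and 6 fell at 12 h, beside 17% and 14.5% of all genes. *Ttll11*, a polyglutamylase, changed by 3.76 ± 0.48 (adjusted p = 3.56e-05) and *Ttll1*, another, by -1.57 ± 0.43 (adjusted p = 0.0107). *Atat1*, the α tubulin acetyltransferase, fell by 1.64 at 24 h (adjusted p = 0.00016) and by 1.21 at 72 h (adjusted p = 0.00115). It was the 1 called gene of this list at 72 h, where 5.81% of all genes were lower and 11% higher.

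Of 33 microtubule-binding and dynamics genes measured, 10 rose and 1 fell at 12 h, beside 17% and 14.5% of all genes. The gene that fell was *Stmn1*, which encodes the tubulin-sequestering stathmin, at -1.76 ± 0.47 (adjusted p = 0.00832). At 72 h 7 rose and 3 fell, beside 11% and 5.81% of all genes, and *Stmn1* was by then higher, at 3.45 ± 0.32 (adjusted p = 1.05e-06). *Kif2c*, a mitotic microtubule depolymerase, was higher by 4.58 ± 0.36 at 72 h (adjusted p = 2.28e-07). *Fignl1* and *Kif18b* were also called and had too few reads at 0 h for a fold to be given. At 24 h 4 rose and 2 fell, beside 14.1% and 12.1% of all genes. At 48 h 6 rose, beside 10%, and at 96 h 1, *Fignl1*, beside 0.338%. None of the 3 other tubulin genes that could be measured, of 10 listed, was called at any time.

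Markers of dividing cells and of other cell types moved over the same times. The 14 proliferation genes had a summed level of 27.3 to 39.0 CPM in control mice at 0 h and of 48.2, 67.0, 228, 443 and 42.4 CPM in the control pools in time order. The LKO pools had 31.9, 76.5, 210, 369 and 72.0 CPM, from 29.6 to 40.3 CPM at 0 h. All 14 rose at 48 and 72 h, where 10% and 11% of all genes did, whereas 3 fell at 12 h, beside 14.5% of all genes. At 24 h, when *Tubb5* and *Tuba1b* were first called, 3 of the 14 were higher and 2 lower, beside 14.1% and 12.1% of all genes. The median log2 change of the 14 was -0.63. None of the 14 was higher at 12 h, beside 17% of all genes, when *Tubb2a* and *Tubb6* were first called. The sum of the 14 was largest at 72 h, when *Tubb5* and *Tuba1b* were highest in the control pools. In the LKO pools *Tubb5* was highest at 24 h, with 181 CPM against 166 CPM at 72 h, and *Tuba1b* stayed at 119 to 123 CPM from 24 to 72 h while the proliferation sum went from 76.5 to 369 CPM. The 10 stellate cell and fibroblast markers summed to 184 to 270 CPM in control mice at 0 h, and to 1249 CPM in the control and 881 CPM in the LKO pool at 72 h, where 9 of 10 were higher, beside 11% of all genes. The 10 macrophage markers summed to 138.8 to 234 CPM in control mice and to 738 and 749 CPM in the 72 h pools, with 5 of 10 higher. At 12 h, 3 of the 10 stellate markers were lower and none higher, and 4 of 6 measured neutrophil markers were higher, where 14.5% of all genes were lower and 17% higher. Of 4 cholangiocyte markers measured, *Sox9* alone was higher at 12 h, while *Cftr* was at 0 in 8 of the 24 libraries, and the neutrophil marker *Ngp* in 11. At 24 h, the time with most tubulin calls, 4 of 6 neutrophil markers were higher, with a median log2 change of 2.58. These markers are rare: the 7 counted summed to 14.4 CPM in the control and 32.5 CPM in the LKO pool. At 0 h they summed to 2.64 to 12.1 CPM in control and 2.71 to 8.49 CPM in LKO mice. Of the 10 macrophage markers 4 were higher and 3 lower at 24 h, and of the 10 stellate markers 2 were higher and 3 lower. At 48 h 5 of 10 were higher on each of these lists, as were 3 of 6 neutrophil markers, beside 10% of all genes. Of the 8 hepatocyte markers 3 were lower and 1 higher at 24 h, with a median of -0.88, and 2 were lower at 12 h. Of the 8 endothelial markers 3 were lower and 1 higher at 24 h, where 12.1% of all genes were lower and 14.1% higher. The part of these cells in the tubulin changes was not tested.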

How the data were processed

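Poly(A) RNA of frozen whole liver was sequenced without strand information. The authors trimmed the reads, aligned them with STAR to mm10 and deposited whole-number counts of uniquely mapped reads per gene, whose annotation is not given in the sources used here. The 4 rows that name no gene were left out, and reads on no gene came to 7.295% to 14.7% of reads. The first of 3 count columns, counted on either strand, was used. Each library held 12665686 to 19499897 counts.

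Counts were tested in R 4.3.3 with edgeR 4.0.16 (filterByExpr, TMM, quasi-likelihood test, Benjamini-Hochberg adjustment over all genes kept), calling genes at an adjusted p under 0.05 and at least 1.5-fold. LKO and control livers were compared at 0 h and over 12 to 96 h with time as a block, and times against 0 h in a model of genotype plus time over 18 libraries. The difference of the LKO effect between 72 to 96 h and 12 to 48 h came from an interaction term. CPM used TMM factors over 24 libraries, and log2 CPM a prior count of 2. Levels per kb used the merged exon length of the GRCm38 annotation. The test script was checked on simulated counts. DESeq2 1.42.0, scaling, filters, single genotypes, single libraries left out and a replicate block were alternatives. Mice at 0 h were separate animals, whereas p-values over pools measure the spread between pools and between times.

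Genes named are the 10 members, the 5 genes nearest to *Tubb2a* and to *Tubb5*, and up to 3 called genes with the largest changes per list and comparison. The members and lists were chosen with earlier results of these data known. Same-numbered mice at 0 h share a number only: their deviations correlated at -0.38, -0.19, 0.10 and 0.22 between control and LKO, and at 0.20, -0.03 and 0.10 between null and HKO mice.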

Additional observations from a re-analysis of the deposited data

Results flagged for a closer look

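In LKO mice at 0 h, *Tuba4a* had 1 library at 123.5 CPM, with the other 3 at 202 to 205 CPM. The gap was 0.964 of the range of the 4 mice, above Dixon's 95% critical value for 4 samples, and 20 groups of 4 mice were checked, of which chance gives about 1 in 20. These checks share mice and are not independent. The same mouse, LKO mouse 2, was also the lowest of the 4 for *Tuba1a*, *Tuba1b*, *Tuba1c*, *Tuba8*, *Tubb4b*, *Tubb5* and *Tubb6*, but not for *Tubb2a* and *Tubb2b*. Its summed α level was 67.7 CPM per kb, against 98.6 to 118 CPM per kb in the others.

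Pools of the 2 genotypes lay on opposite sides of their own 0 h mice for 3 of the 10 tubulin genes. Every tubulin gene was checked at each time after APAP. The share of all genes with such pools was not computed, so whether 3 is unusual cannot be told. For *Tubb2a* at 96 h the log2 change from 0 h was -0.34 in the control pool and 1.13 in the LKO pool. For *Tuba1a* at 96 h it was -0.42 in the control and 0.53 in the LKO pool. For *Tuba8* at 48 h it was 2.16 in the control and -1.65 in the LKO pool, at levels of at most 3.38 CPM. With 1 pool each, these differences were not tested.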

How the results depend on the processing

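Values were recomputed for tubulin genes called or named in a comparison. Of these values 720 stayed the same, 13 dropped below the threshold, 13 passed it and 4 turned. A value stayed the same if it kept its direction and its side of the threshold. The 720 include 12 values of *Tubb2a* in HKO against null mice, which were judged by direction and size alone. That contrast chose the family, and nothing is drawn from them. *Tubb2a* in LKO against control mice at 0 h ranged from -0.14 without LKO mouse 1 to 0.52 without LKO mouse 3. Over 12 to 96 h it ranged from -0.96 without the 96 h pools to 0.017 without the 48 h pools. At 96 h against 0 h it ranged from -0.69 without the LKO pool to 1.25 without the control pool, and was -0.35 in control libraries alone.

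The counts of all called genes moved more. LKO against control at 0 h: 3 with DESeq2. HKO against null: 255 without a filter, 331 with DESeq2. Over 12 to 96 h: 42 with library size alone, 337 without a filter, 34 with at least 10 counts in every library, 606 with DESeq2 and 0 without the time block, with 2 tubulin genes called without a filter and 1 with DESeq2. LKO libraries alone gave 1281 genes at 12 h, 1023 at 24 h, 172 at 48 h (0 tubulin genes), 296 at 72 h (3 tubulin genes) and 10 at 96 h, and control libraries alone 1670 at 24 h and 9 at 96 h. At 96 h library size alone gave 41 and DESeq2 342, and for the change of the LKO effect with time they gave 34 and 187. The cause was not tested beyond the smaller number of libraries.

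Leaving out 1 library or 1 time gave 0 to 1 genes for LKO at 0 h, 54 to 297 for HKO, 9 to 177 over 12 to 96 h (0 to 2 tubulin genes), 2079 to 4354 at 12 h, 1143 to 3608 at 24 h, 474 to 2410 at 48 h (1 to 6 tubulin genes), 474 to 2376 at 72 h (3 to 7 tubulin genes), 11 to 110 at 96 h, and 0 to 25 for the change of the LKO effect.

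The replicate block gave 263 genes for HKO against null, 25 at 96 h and 4 for the change of the LKO effect, and the pairing is not supported by the correlations of same-numbered mice. Library size alone shifted the median of all genes by 0.13 (log2) for LKO at 0 h, 0.14 at 24 h, 0.19 at 48 h and 0.12 for the change of the LKO effect.

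Each injured state is 1 pool per genotype, so single-time differences have no error. Reads shared between α genes were not counted, and fold changes of *Tubb2b* and *Tuba8* rest on few reads.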
